A study of Mus musculus with 18 samples.

Results

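RGS genes encode regulators of G protein signalling, and 8 of them were followed here in mouse basophils: Rgs1, Rgs2, Rgs3, Rgs10, Rgs14, Rgs16, Rgs18 and Rgs19. They were picked by symbol from the 56413 genes of a bulk RNA sequencing table, and all 8 were among the 14076 genes abundant enough to test. The choice was made with earlier results of these data known. Bone marrow cells were grown over 7 days in interleukin-3 (0.3 ng/mL), given IgE against the hapten TNP on day 6 (1 µg/mL), and enriched on beads for the surface protein CD49b. Basophils carry the high-affinity IgE receptor, and TNP-coupled ovalbumin (TNP-OVA) links the bound IgE, whereas plain ovalbumin (control OVA) does not carry the hapten. TTP-KO cells received control OVA for 2 h, TNP-OVA for 2 h or TNP-OVA for 4 h, and so did wild-type (WT) cells, with 10 ng/mL in each case and 3 libraries in each of the 6 groups. TTP is tristetraprolin, encoded by Zfp36, an RNA-binding protein known for bringing transcripts with AU-rich elements to decay. The study asked how its absence alters gene expression in basophils activated through IgE and antigen. The labels give neither the allele nor the strain, nor whether replicate libraries trace to different mice or cultures. The p-values therefore cover only the variation among the libraries at hand, and that variation may be technical.

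Receptors coupled to heterotrimeric G proteins, such as those for chemokines, histamine, prostaglandins and adenosine, switch G alpha subunits to their GTP-bound form. RGS proteins speed the return to the GDP-bound form by raising the GTPase rate of G alpha, and so shorten the signal. Rgs1, Rgs2, Rgs3, Rgs16 and Rgs18 belong to one subfamily that acts on Gi and Gq type subunits, with RGS2 known for its preference for Gq. RGS10 and RGS14 belong to another that acts on Gi type subunits, and RGS14 also holds a GoLoco motif and Ras-binding domains. RGS19, also known as GAIP, was described through its binding to the Gi3 alpha subunit. In leukocytes RGS proteins are known for setting the strength of chemokine receptor signals, and RGS18 for its high level in platelets and megakaryocytes.

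Rgs1, Rgs2, Rgs16 and Rgs18 lie on chromosome 1, Rgs19 on chromosome 2, Rgs3 on chromosome 4, Rgs10 on chromosome 7 and Rgs14 on chromosome 13. In RefSeq gene order Rgs2, Rgs13, Rgs1, Rgs21 and Rgs18 follow one another on chromosome 1, and of these Rgs21 had no count in any of the 18 libraries and Rgs13 had 7 estimated counts over all of them. Because TTP binds AU-rich elements in 3′ untranslated regions (UTRs), the UTR of the longest coding transcript of each member was searched for TATTTAT, the letters of the core TTP motif, on the transcript strand. The search used GENCODE vM21 on GRCm38. Of the 8 members, 3 held a match, and in all 20931 genes with an annotated 3′ UTR 27.4% did. The share was 33.5% among UTRs of 1000 to 2000 bases and 51.1% among those of 2000 to 4000 bases. Rgs1 had 1 match in a UTR of 3006 bases, beyond the end of the gene as RefSeq draws it. Rgs16 had 3 matches in 1613 bases, and 2 of them overlap. Rgs18 had 2 matches in 1129 bases. Longer and shorter letters were searched as well. TTATTTATT had 1 match in Rgs1, 2 in Rgs16 and 0 in Rgs18 and in each other member, and 7.55% of all genes held it. ATTTA matched in every member except Rgs10 and Rgs14, and in 64.6% of all genes. The 5 windows of 30 bases with TATTTAT in capitals are shown because they are where a TTP motif occurs in these genes, and a match describes letters only.
Rgs1 chr1:144243182-144243211, minus strand: ttaaatgtttatTATTTATtacttgaagat
Rgs16 chr1:153745168-153745197, plus strand: cgctgctattgtTATTTATtgtggtttgtt
Rgs16 chr1:153745327-153745356, plus strand: actgtgttaaTATTTATTTATtgttaacaa
Rgs18 chr1:144752839-144752868, minus strand: tatactaataaaTATTTATctctatattac
Rgs18 chr1:144752683-144752712, minus strand: ataataaactgttaaaatgTATTTATcaac

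Of the 8 members, 5 matched an entry in the RefSeq promoter table (GRCm38.p6, from 250 bases before to 50 after each start). Rgs1, Rgs14 and Rgs18 had no entry, so their promoters were not searched. The promoters of Rgs2 and Rgs16 are shown because both genes rose after 2 h of antigen and their windows held a match. Rgs10 rose as well, but its promoter held none of the motifs searched and is not printed. Rgs19, which fell, and Rgs3, which gave no call, held matches to the NFAT core, and Rgs3 also to the TATA-like letters. Their promoters are not printed either. Capitals mark matches on either strand to 8 motifs, of which 7 are spelled out after the sequences and the NF-kB motif is given by name.
Rgs2 chr1:144004100-144004399, minus strand: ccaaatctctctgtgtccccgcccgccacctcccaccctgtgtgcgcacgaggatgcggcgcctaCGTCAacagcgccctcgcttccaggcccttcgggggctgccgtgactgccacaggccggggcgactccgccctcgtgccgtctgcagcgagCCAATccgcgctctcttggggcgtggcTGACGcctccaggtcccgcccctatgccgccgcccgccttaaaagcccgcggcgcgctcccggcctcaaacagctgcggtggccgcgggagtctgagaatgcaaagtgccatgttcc
Rgs16 chr1:153740103-153740402, plus strand: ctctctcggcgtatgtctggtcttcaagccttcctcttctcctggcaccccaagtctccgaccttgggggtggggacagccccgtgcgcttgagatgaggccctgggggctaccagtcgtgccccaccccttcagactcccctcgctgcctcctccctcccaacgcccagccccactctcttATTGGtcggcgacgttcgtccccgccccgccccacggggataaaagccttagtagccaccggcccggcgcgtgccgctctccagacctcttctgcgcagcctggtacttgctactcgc
The Rgs2 promoter held matches to TGACG, the core of the cyclic AMP response element (CRE), starting at -185 and at -67 from the start site, and 20.8% of all 32851 promoters in the table held that motif. It also held CCAAT, the letters read by the factor NF-Y, at -94. The Rgs16 promoter held that same motif at -68, as did 37.4% of all promoters at some position. No other motif searched matched in either window. These were GGAAA, the core read by NFAT, present in 61.3% of promoters, and the AP-1 letters TGANTCA, present in 7.81%. The full CRE, which is TGACGTCA and contains its core, was present in 1.79% of promoters, and the NF-kB site in 1.63%. The TATA-like letters TATAAA were present in 13.6% of promoters and the EGR letters GCGTGGGCG in 0.612%. A match is a description of letters, and a missing match says only that they are not in this window.

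The 18 libraries held from 5516600 to 12733000 estimated counts. A sum over 12 basophil markers (such as Mcpt8 and Fcer1a) of 24690 to 33413 CPM, the count scaled to library size, matched the labelled cell type. At 4 h this sum was 24690 to 25157 CPM in TTP-KO libraries, against 25758 to 27297 CPM in WT libraries. Of the 12 markers 5 were lower and 0 higher in TTP-KO at 4 h, against 3.4% and 1.83% of all genes. In control cells and at 2 h the sums overlapped, with 1 higher and 2 lower in control and 1 higher and 1 lower at 2 h. The part of these markers in the RGS differences was not tested. Zfp36 RNA averaged 224 ± 4.46, 564 ± 9.92 and 324 ± 23.9 CPM in TTP-KO libraries after control OVA, 2 h and 4 h of TNP-OVA, against 237 ± 11.4, 448 ± 10.6 and 295 ± 22.7 CPM in WT libraries (SD, n = 3). This RNA was not called lower in libraries labelled TTP-KO in any condition. At 2 h it was higher in them (log2 0.33 ± 0.05 SE, edgeR adjusted p = 0.000316). In control (adjusted p = 0.601) and at 4 h (0.151) it was not called. The altered part of the gene is not given, so Zfp36 RNA does not check the label, on which every direction below rests. Summed markers of other cells also differed between genotypes. Over the 3 conditions the 15 neutrophil and granulocyte precursor markers summed to 2777 to 3472 CPM in TTP-KO libraries, against 1814 to 2335 CPM in WT libraries, and 12 monocyte and macrophage markers to 5262 to 5966 CPM in TTP-KO against 4212 to 4619.8 CPM in WT libraries. Dendritic cell markers (11 genes) summed to 2560.3 to 2870.1 CPM in TTP-KO libraries, against 3804.5 to 4282 CPM in WT libraries. Mast cell markers summed to 123 to 138 CPM in TTP-KO libraries, against 191 to 223 CPM in WT libraries, and 2 of the 5 tested were lower in TTP-KO in each condition. Erythroid markers summed to 22.8 to 39.0 CPM in TTP-KO libraries, against 35.5 to 59.8 CPM in WT libraries, without overlap within a condition. In such bulk libraries fewer cells of a type and less RNA per cell cannot be told apart.

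Levels of the 8 genes spanned from 4.68 CPM for Rgs3 to 600.5 CPM for Rgs1 over the 18 libraries. Divided by the length of the longest coding transcript in GENCODE, which allows genes to be compared, Rgs10 stood highest in control cells, at 122 ± 8.48 CPM per kb in TTP-KO and 132 ± 9.94 CPM per kb in WT libraries (SD, n = 3). Rgs19 came next, at 96.0 ± 7.97 CPM per kb in TTP-KO and 91.0 ± 4.90 CPM per kb in WT libraries. Rgs2, Rgs1 and Rgs18 held the middle, with 60.9, 46.8 and 37.9 CPM per kb in TTP-KO libraries and 64.4, 58.8 and 43.1 CPM per kb in WT libraries. Rgs14, Rgs16 and Rgs3 were lowest per length, with 16.1, 4.45 and 1.24 CPM per kb in TTP-KO libraries and 15.4, 4.36 and 1.26 CPM per kb in WT libraries. After 2 h of TNP-OVA Rgs1 reached 150.4 ± 6.32 CPM per kb in TTP-KO and 140.5 ± 2.58 CPM per kb in WT libraries, and Rgs10 168 ± 1.84 CPM per kb in TTP-KO and 178 ± 6.62 CPM per kb in WT libraries. The place of Rgs1 in this order depends on its annotated length, since only 1330 of the 3841 bases of its transcript lie inside the gene as RefSeq draws it. Over those bases Rgs1 stood above Rgs10, at 135 CPM per kb in TTP-KO and 169.9 CPM per kb in WT control libraries and at 434 CPM per kb in TTP-KO and 406 CPM per kb in WT libraries after 2 h. The levels of the other 7 genes moved by less than their SD with this length, which was tried after the data were seen. The summed level of the 8 genes averaged 747, 1250.3 and 816 CPM in TTP-KO libraries after control OVA, 2 h and 4 h, and 814, 1241 and 849 CPM in WT libraries.

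**Figure D1:**
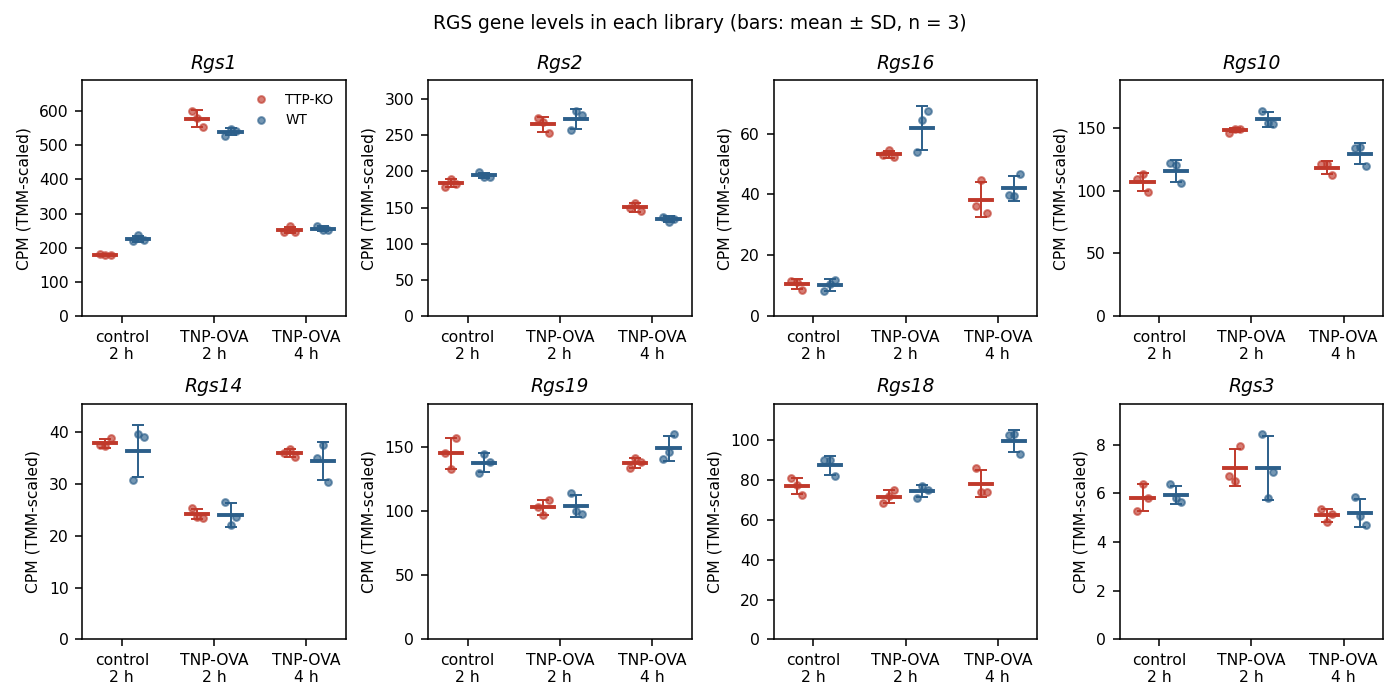
Level of each RGS gene (CPM after TMM scaling, y axes from 0) in each of the 18 libraries by condition, TTP-KO in red and WT in blue; points are libraries and bars are the mean ± SD of 3. Rgs1, Rgs2, Rgs10 and Rgs16 stand higher at 2 h of TNP-OVA than in control cells, Rgs14 and Rgs19 lower, and the control Rgs1 points of TTP-KO, at 178 to 182 CPM, lie below those of WT, at 219 to 237 CPM.

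Antigen changed most of the RGS genes within 2 h, and in both directions. In TTP-KO cells 4 of 8 rose (Rgs1, Rgs2, Rgs10 and Rgs16) and 2 fell (Rgs14 and Rgs19), against 34.5% of all genes tested that changed in either direction. In WT cells the same 4 rose and 3 fell (Rgs14, Rgs18 and Rgs19), against 35.1% of all genes. Control OVA was given for 2 h only, so every comparison of 4 h with control is with a 2 h control. In these comparisons, and in the differences in response built on them, antigen and time in culture cannot be told apart. By 4 h the counts relative to control were 2 higher and 1 lower in TTP-KO cells (35% of all genes) and 4 higher and 1 lower in WT cells (38%, with 19.6% higher). Libraries at 2 h did not overlap control libraries for 45.3% of all genes in TTP-KO and 43.4% in WT cells. At 4 h they did not for 47.5% of all genes in TTP-KO and 49.1% in WT cells. Calls are at an adjusted p under 0.05 in edgeR's quasi-likelihood test with Benjamini-Hochberg adjustment over all 14076 genes. The median log2 fold change of the 8 genes at 2 h was 0.37 in TTP-KO and 0.34 in WT cells, against -0.03 and -0.05 over all genes. Because the 8 were chosen with earlier results of these data known, such shares and medians describe them and do not test them. With libraries scaled by their totals alone, the median of all genes shifted by -0.336 in TTP-KO and -0.325 in WT cells at 2 h, which bears on the smaller changes below.

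Rgs1 (ENSMUSG00000026358) is a G alpha GTPase activator known as a gene induced on activation of lymphocytes. It stood at 182, 178 and 178 CPM in the TTP-KO control libraries, at 600.5, 581 and 552 CPM after 2 h and at 246, 263 and 247 CPM after 4 h. In WT libraries it stood at 219, 237 and 222 CPM in control, at 529, 548 and 542 CPM after 2 h and at 263, 252 and 253 CPM after 4 h. Every 2 h library lay above every 4 h library, and every 4 h library above every control library, in both genotypes. At 2 h Rgs1 was 3.22-fold higher than control in TTP-KO cells (log2 1.69 ± 0.04 SE, edgeR adjusted p = 2.97e-22) and 2.39-fold higher in WT cells (log2 1.26 ± 0.04, adjusted p = 1.61e-19). Of all genes, 3.02% changed by more in TTP-KO cells and 6.86% in WT cells. At 4 h it was still higher than control, by log2 0.49 ± 0.04 in TTP-KO (edgeR adjusted p = 4.78e-10) and 0.18 ± 0.04 in WT cells (adjusted p = 0.00134). The WT change at 4 h was not called when libraries were scaled by their totals (log2 0.06, adjusted p = 0.318).

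Rgs16 (ENSMUSG00000026475) showed the largest fold increase of the 8. Its product acts on Gi and Gq type subunits and is known to be induced in activated lymphocytes. In TTP-KO libraries it stood at 11.5, 11.2 and 8.51 CPM in control, at 52.9, 54.4 and 52.3 CPM after 2 h and at 36.2, 44.6 and 33.9 CPM after 4 h. The WT libraries held 8.21, 10.5 and 11.9 CPM in control, 53.8, 64.4 and 67.4 CPM after 2 h and 39.8, 39.4 and 46.8 CPM after 4 h. Stimulated and control libraries were well apart, while the genotypes overlapped in every condition. At 2 h the increase was 5.16-fold in TTP-KO (log2 2.37 ± 0.14, edgeR adjusted p = 1.37e-13) and 6.04-fold in WT cells (log2 2.60 ± 0.14, adjusted p = 1.76e-14), with 1.29% and 1.2% of all genes changing by more. At 4 h it was 3.69-fold in TTP-KO (log2 1.88 ± 0.14, edgeR adjusted p = 2.35e-11) and 4.08-fold in WT cells (log2 2.03 ± 0.14, adjusted p = 4.22e-12). A gene annotated antisense to Rgs16, Gm28513, had at most 4.46 estimated counts in any library.

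Rgs2 (ENSMUSG00000026360), the Gq-preferring member, was higher than control at 2 h and stood below the 2 h control at 4 h. The TTP-KO libraries held 179, 189.9 and 183 CPM in control, 274, 268 and 254 CPM after 2 h, and 150.0, 157 and 145 CPM after 4 h. The WT libraries held 199, 192 and 193 CPM in control, 258, 284 and 278 CPM after 2 h, and 138, 129.5 and 135 CPM after 4 h. In each genotype the 3 conditions did not overlap, with 2 h highest and 4 h lowest. The 2 h increase was log2 0.53 ± 0.05 in TTP-KO (edgeR adjusted p = 5.24e-10) and 0.49 ± 0.05 in WT cells (adjusted p = 2.44e-09). At 4 h Rgs2 was below control by log2 -0.29 ± 0.05 in TTP-KO (edgeR adjusted p = 2.41e-05) and -0.54 ± 0.05 in WT cells (adjusted p = 4.54e-10). Scaled by library totals, the 2 h increase was 0.19 in TTP-KO and 0.16 in WT cells and the call remained.

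Rgs18 (ENSMUSG00000026357), the member known from platelets and megakaryocytes, changed little with antigen. It stood at 81.2, 77.3 and 72.7 CPM in TTP-KO control libraries, at 68.4, 71.8 and 75.0 CPM after 2 h and at 85.9, 74.1 and 74.2 CPM after 4 h, with all 3 conditions overlapping. In WT libraries it stood at 90.3, 90.2 and 82.0 CPM in control, at 71.1, 77.3 and 75.1 CPM after 2 h and at 103, 103 and 93.2 CPM after 4 h, with no overlap between conditions. The WT log2 change at 2 h was -0.23 ± 0.07 (edgeR adjusted p = 0.0118) and that at 4 h was 0.19 ± 0.07 (adjusted p = 0.0264). The 2 h call was lost without WT TNP-OVA 2 h replicate 1 (adjusted p = 0.0703), and with library totals the value was -0.55. The 4 h call was lost without WT control replicate 3, WT TNP-OVA 4 h replicate 1 or replicate 2 (adjusted p 0.0925 to 0.155), and with library totals (0.481). In TTP-KO cells the log2 change was -0.10 ± 0.07 at 2 h (edgeR adjusted p = 0.295) and 0.02 ± 0.07 at 4 h (adjusted p = 0.824), and with library totals the 2 h value was -0.44 (adjusted p = 1.05e-05).

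Rgs3 (ENSMUSG00000059810), whose product acts on Gi and Gq type subunits, was the least abundant, with 35 to 66 estimated counts per library and 4.68 to 8.41 CPM. It averaged 5.82 ± 0.57, 7.05 ± 0.77 and 5.09 ± 0.28 CPM in TTP-KO libraries after control OVA, 2 h and 4 h, and 5.93 ± 0.38, 7.03 ± 1.31 and 5.19 ± 0.59 CPM in WT libraries (SD, n = 3). In TTP-KO cells the 2 h libraries lay above the control libraries, and in WT cells they overlapped. When the 6 groups were ordered by mean, each overlapped the next. No comparison of Rgs3 passed the threshold, and at 2 h the 95% interval of the log2 change ran from -0.13 to 0.67 in TTP-KO and from -0.16 to 0.64 in WT cells. From 2 h to 4 h its log2 change was -0.46 ± 0.19 in TTP-KO cells (95% interval -0.86 to -0.06, edgeR adjusted p = 0.0734). In WT cells that change was -0.43 ± 0.19 (95% interval -0.82 to -0.04, edgeR adjusted p = 0.0911).

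Rgs10 (ENSMUSG00000030844), the small activator of Gi type GTPases, rose modestly at 2 h. The TTP-KO libraries held 109, 113 and 98.6 CPM in control, 146, 149 and 149 CPM after 2 h, and 121, 121 and 112 CPM after 4 h. The WT libraries held 122, 120.2 and 106 CPM in control, 164, 154 and 153 CPM after 2 h, and 134, 135 and 120.0 CPM after 4 h. The 2 h libraries lay above all others, and the 4 h libraries overlapped the controls. The 2 h increase was log2 0.47 ± 0.06 in TTP-KO (edgeR adjusted p = 4.78e-07) and 0.44 ± 0.06 in WT cells (adjusted p = 1.61e-06). With library totals it was 0.14 (adjusted p = 0.0815) and 0.11 (adjusted p = 0.146), so the Rgs10 increase is one relative to the median gene. At 4 h the log2 change was 0.15 ± 0.06 in TTP-KO (edgeR adjusted p = 0.0698) and 0.16 ± 0.06 in WT cells (adjusted p = 0.0354), the WT call being lost under several settings, including library totals (0.04, adjusted p = 0.663) and without WT control replicate 3 (0.247), WT TNP-OVA 4 h replicate 1 (0.12) or replicate 2 (0.222).

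Rgs14 (ENSMUSG00000052087), the member with GoLoco and Ras-binding regions, fell at 2 h and at 4 h stood near the 2 h control. It stood at 37.5, 37.2 and 38.8 CPM in TTP-KO control libraries, at 25.4, 23.6 and 23.5 CPM after 2 h and at 36.0, 36.7 and 35.1 CPM after 4 h. In WT libraries it stood at 30.6, 39.5 and 39.0 CPM in control, at 26.6, 22.0 and 23.6 CPM after 2 h and at 35.1, 37.6 and 30.4 CPM after 4 h. All 2 h libraries lay below all control and 4 h libraries. The log2 change at 2 h was -0.65 ± 0.10 in TTP-KO (edgeR adjusted p = 9.63e-06) and -0.60 ± 0.10 in WT cells (adjusted p = 3.39e-05), and with library totals it was -0.98 in TTP-KO and -0.92 in WT cells. At 4 h it was -0.08 ± 0.10 in both genotypes (edgeR adjusted p = 0.584 in TTP-KO and 0.576 in WT), with 95% intervals from -0.27 to 0.12. With library totals the 4 h value was -0.21 in TTP-KO (adjusted p = 0.0906) and -0.20 in WT cells (adjusted p = 0.105).

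Rgs19 (ENSMUSG00000002458) moved like Rgs14. The TTP-KO libraries held 145, 133 and 157 CPM in control, 103, 96.7 and 109 CPM after 2 h, and 134, 141 and 138 CPM after 4 h. The WT libraries held 129.7, 144 and 138 CPM in control, 114, 99.8 and 97.9 CPM after 2 h, and 141, 146 and 159.6 CPM after 4 h. Control and 4 h libraries overlapped, and the 2 h libraries lay below both. Its log2 change at 2 h was -0.50 ± 0.07 in TTP-KO (edgeR adjusted p = 8.23e-07) and -0.41 ± 0.07 in WT cells (adjusted p = 1.97e-05), and with library totals -0.83 in TTP-KO and -0.73 in WT cells. At 4 h it was -0.08 ± 0.07 in TTP-KO (edgeR adjusted p = 0.396) and 0.11 ± 0.07 in WT cells (adjusted p = 0.181). With library totals the 4 h value was -0.21 in TTP-KO, which was called (adjusted p = 0.0115), and -0.01 in WT cells (adjusted p = 0.911).

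**Figure D2:**
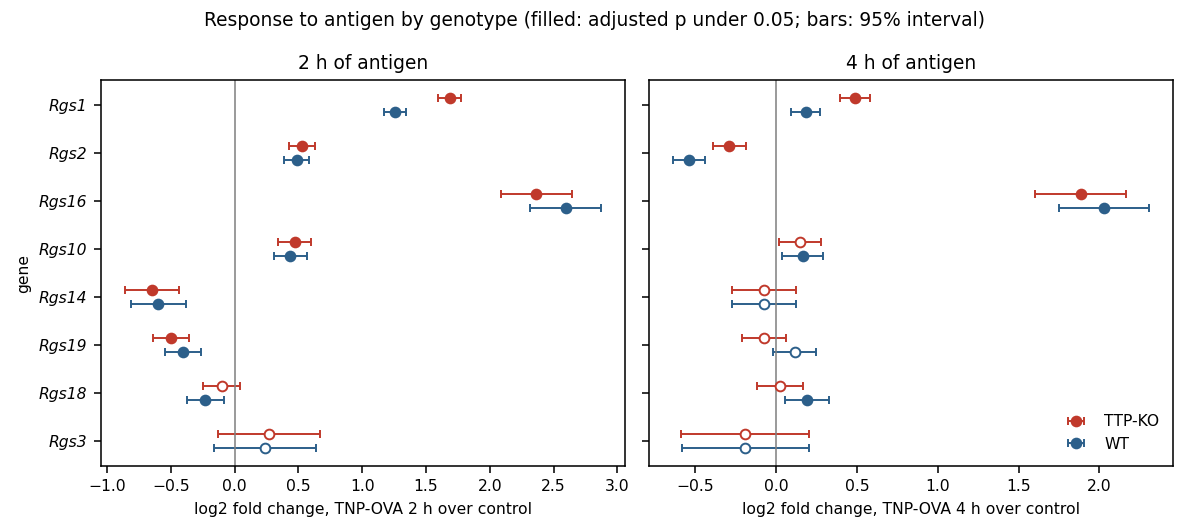
Log2 fold change of each RGS gene after 2 h (left) and 4 h (right) of TNP-OVA over 2 h of control OVA, TTP-KO in red above WT in blue; bars are 95% intervals and filled points passed the adjusted p threshold. Rgs16 and Rgs1 lie farthest to the right at 2 h, Rgs14 and Rgs19 lie left of 0, and at 4 h Rgs2 lies left of 0 in both genotypes.

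Between 2 h and 4 h of TNP-OVA most of the genes that had changed moved the other way. Without a 4 h control, antigen and time in culture cannot be told apart here either. In TTP-KO cells 4 of the 8 fell and 2 rose (30.8% of all genes changed, with 43.3% not overlapping). In WT cells 4 fell and 3 rose (31.1%, with 44.2% of genes not overlapping). The 4 that fell were Rgs1, Rgs2, Rgs10 and Rgs16 in both genotypes. Rgs1 changed by log2 -1.20 ± 0.04 in TTP-KO (edgeR adjusted p = 1.52e-18) and -1.08 ± 0.04 in WT cells (adjusted p = 1.93e-17). Rgs2 changed by log2 -0.82 ± 0.05 in TTP-KO (edgeR adjusted p = 1.16e-13) and -1.03 ± 0.05 in WT cells (adjusted p = 8.03e-16). Rgs16 changed less, by log2 -0.48 ± 0.12 in TTP-KO (edgeR adjusted p = 0.00207) and -0.57 ± 0.11 in WT cells (adjusted p = 0.000313). With library totals the Rgs16 change was -0.28 in TTP-KO (edgeR adjusted p = 0.0429) and -0.36 in WT cells (adjusted p = 0.00764). Rgs10 changed by -0.33 ± 0.06 in TTP-KO and -0.27 ± 0.06 in WT cells, and both calls were lost with library totals, at -0.12 in TTP-KO (adjusted p = 0.127) and -0.07 in WT cells (adjusted p = 0.393). Rgs14 rose by 0.57 ± 0.10 in TTP-KO and 0.52 ± 0.10 in WT cells, and Rgs19 by 0.42 ± 0.07 in TTP-KO and 0.52 ± 0.07 in WT cells. Rgs18 rose by 0.42 ± 0.07 in WT cells (edgeR adjusted p = 2.3e-05), while in TTP-KO cells its log2 change was 0.13 ± 0.07 (adjusted p = 0.188). With library totals both were called, at 0.33 in TTP-KO (edgeR adjusted p = 0.000577) and 0.62 in WT cells. The difference between genotypes was itself -0.29 ± 0.10 and did not pass the threshold (edgeR adjusted p = 0.299).

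The comparison of genotypes within a condition asked whether TTP-KO cells held other levels of these genes. In control cells 1 of 8 was lower in TTP-KO (Rgs1) and none higher, against 1.65% of all genes changed. After 2 h of TNP-OVA 0 of 8 passed in edgeR, against 2.79% of all genes, with 0.909% higher and 1.88% lower. At an unadjusted p under 0.05 edgeR gave 1 of 8, Rgs1, and DESeq2 gave 0 of 8 after adjustment. After 4 h Rgs2 was higher and Rgs18 lower in TTP-KO, against 5.22% of all genes, with 1.83% higher and 3.4% lower. The median log2 difference of the 8 genes was -0.05 in control cells, -0.03 at 2 h and -0.07 at 4 h, against -0.00, 0.00 and 0.01 over all genes.

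Control Rgs1 was 179.6 ± 2.37 CPM in TTP-KO libraries and 226 ± 9.69 CPM in WT libraries (SD, n = 3), without overlap, as for 17.5% of all genes. The log2 difference was -0.33 ± 0.04 (edgeR adjusted p = 4.11e-05), the call held in all 12 alternatives, with an adjusted p of at most 0.00308, and 17 of 14076 genes had a smaller p. At 2 h every TTP-KO library lay above every WT library, at 578 ± 24.3 CPM in TTP-KO against 540 ± 9.91 CPM in WT libraries. Genotypes did not overlap at 2 h for 18.5% of all genes. The log2 difference of 0.10 ± 0.04 did not pass (edgeR adjusted p = 0.262). At 4 h the genotypes overlapped, with a log2 difference of -0.02 ± 0.04 (edgeR adjusted p = 0.847). Rgs1 is also abundant in B cells, and the 8 B cell markers summed to 47.0 to 61.6 CPM in TTP-KO control libraries, against 91.2 to 103 CPM in WT control libraries. At 2 h they summed to 51.1 to 61.0 CPM in TTP-KO, against 84.3 to 102 CPM in WT libraries, and at 4 h to 37.8 to 47.0 CPM in TTP-KO, against 73.5 to 90.6 CPM in WT libraries. Between genotypes 6 of the 8 markers were lower in TTP-KO in control cells, 5 at 2 h and 6 at 4 h, and none was at 0 in every library. The part of these markers, and of the markers of the other cell types above, in the Rgs1 difference was not tested.

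Rgs18 was lower in TTP-KO cells after 4 h, at 78.1 ± 6.80 CPM in TTP-KO and 99.6 ± 5.60 CPM in WT libraries (SD, n = 3), with no overlap, as for 25.1% of all genes. The log2 difference was -0.35 ± 0.07 (edgeR adjusted p = 0.00117), and the call held in all 12 alternatives with an adjusted p of at most 0.0168. In control cells the TTP-KO libraries also lay below the WT libraries, at 77.1 ± 4.25 CPM in TTP-KO against 87.5 ± 4.77 CPM in WT, with a log2 difference of -0.18 ± 0.07 that did not pass (edgeR adjusted p = 0.219). At 2 h the difference was -0.06 ± 0.07 (edgeR adjusted p = 0.794). The 8 megakaryocyte and platelet markers summed to 1492 to 1654 CPM in TTP-KO 4 h libraries, against 1618 to 1709 CPM in WT 4 h libraries. In control cells they summed to 1502 to 1989 CPM in TTP-KO, against 1798 to 2086 CPM in WT libraries, and at 2 h to 1652 to 1794 CPM in TTP-KO, against 1731 to 1972 CPM in WT libraries. None of the 8 was called between genotypes in any condition by edgeR, their median log2 difference at 4 h was -0.24, none was at 0 in every library, and their part in the Rgs18 difference was not tested.

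Rgs2 at 4 h was 151 ± 6.20 CPM in TTP-KO and 134 ± 4.08 CPM in WT libraries (SD, n = 3), with all TTP-KO libraries above all WT libraries. Genotypes did not overlap at 4 h for 25.1% of all genes. The log2 difference of 0.17 ± 0.05 just passed (edgeR adjusted p = 0.0399). It was lost with RLE scaling (0.0571), with no filter (0.165), in DESeq2 (0.0777) and in 5 of 6 fits that left out a library, namely without any 1 of the 3 WT libraries (0.0532 to 0.187) or without TTP-KO replicate 1 (0.0948) or 2 (0.196). The remaining members gave no call between genotypes in any condition. Rgs16 had log2 differences of 0.01 ± 0.16 in control, -0.22 ± 0.11 at 2 h and -0.14 ± 0.11 at 4 h, with edgeR adjusted p of 0.992, 0.382 and 0.6, and at 2 h its 95% interval ran from -0.46 to 0.01. Rgs10 lay at -0.12 ± 0.06, -0.08 ± 0.06 and -0.13 ± 0.06 on the log2 scale (edgeR adjusted p = 0.476, 0.606 and 0.25). At 2 h its TTP-KO libraries lay below its WT libraries, and 18.5% of all genes did not overlap. Rgs14, Rgs19 and Rgs3 differed by between -0.11 and 0.08 on the log2 scale in every condition, with overlapping libraries.

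**Figure D3:**
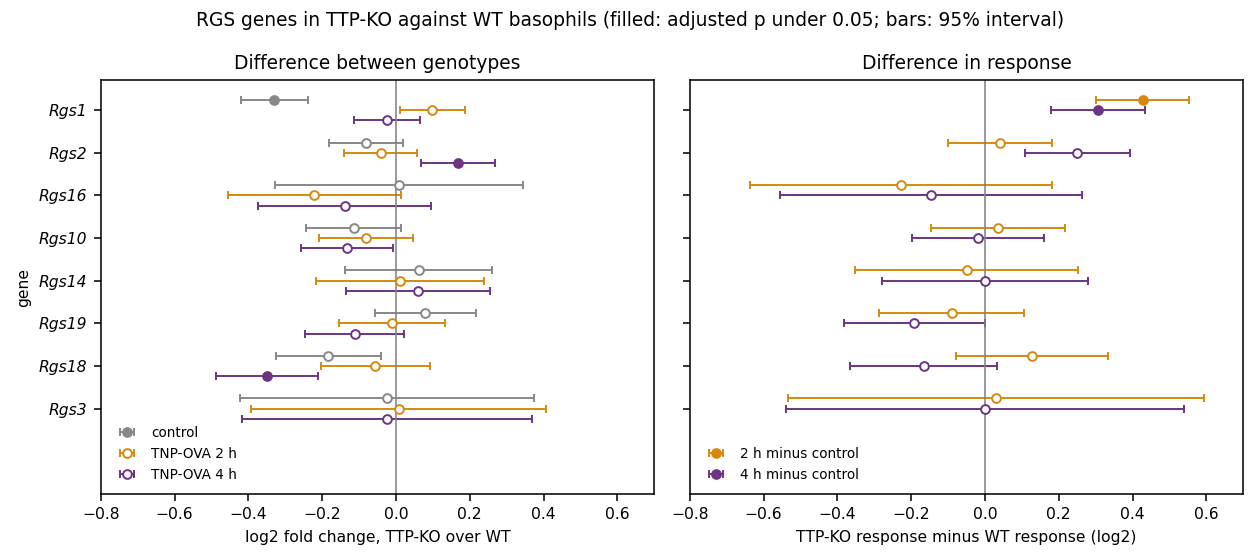
Left, log2 fold change of each RGS gene in TTP-KO over WT libraries in control cells (grey), at 2 h (orange) and at 4 h (purple) of TNP-OVA; right, the antigen response of TTP-KO minus that of WT (log2) at 2 h and 4 h. Bars are 95% intervals and filled points passed the adjusted p threshold; on the left these are Rgs1 in control and Rgs2 and Rgs18 at 4 h, and on the right Rgs1 at both times.

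Rgs1 was the 1 member whose response to antigen differed between genotypes by the test of the difference itself. Its response at 2 h was larger in TTP-KO than in WT cells by log2 0.43 ± 0.06 (edgeR adjusted p = 0.000804). That made it 1 of 7 genes called in this comparison, 0.0497% of all tested (0.0355% larger and 0.0142% smaller in TTP-KO), with Il13, Ccl3, Zfp36 and Phf20l1 also larger in TTP-KO and Nr4a3 and Tufm smaller. The call held in all 18 alternatives, with an adjusted p of at most 0.00993. This value is the genotype difference of 0.10 at 2 h less that of -0.33 in control, both already given, and rests on the same control libraries. At 4 h the response was larger by 0.31 ± 0.06 (edgeR adjusted p = 0.0129), against 0.689% of genes called. This call was lost without WT control replicate 2 (0.053) or TTP-KO TNP-OVA 4 h replicate 2 (0.0621). The genotype difference at 4 h was itself -0.02, so the value comes from the -0.33 in control. For Rgs2 the difference in response at 4 h was 0.25 ± 0.07 (edgeR adjusted p = 0.101). For Rgs16 the difference in response at 2 h was -0.23 ± 0.20 (edgeR adjusted p = 0.883), with a 95% interval from -0.64 to 0.18. Between 4 h and 2 h 0 of 8 differed in response in edgeR, against 0.313% of all genes (0.0924% higher and 0.22% lower), with 2 of 8 at an unadjusted p under 0.05 (Rgs2 and Rgs18) and 0 of 8 in DESeq2.

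Across the 18 libraries the members differed in how closely they followed Rgs1. The Pearson r of log2 CPM with Rgs1 was 0.92 for Rgs10, 0.79 for Rgs16 and 0.76 for Rgs2, 0.62 for Rgs3, -0.47 for Rgs18, -0.92 for Rgs14 and -0.90 for Rgs19. Rgs2 and Rgs16 had an r of 0.25 with each other, and Rgs18 one of -0.19 with Rgs10 and with Rgs16. These values describe 18 libraries in 6 groups that share the antigen treatment, with no test. Among the 9728 genes whose mean log2 CPM reached 2, the 3 most like Rgs1 by r were Junb, a subunit of AP-1 (0.989), Plek (pleckstrin, 0.989) and Tnfrsf12a (the TWEAK receptor, 0.988). The genes most like Rgs16 were Sema7a, a membrane semaphorin (0.99), Nck2, an adaptor protein (0.988), and Cish, a feedback inhibitor of cytokine signalling (0.988). Rgs2 was most like Lpin2, Klf13 and Vcl (0.977, 0.967 and 0.967), and Rgs10 most like the small GTPase genes Rap1b and Rap1a and the fusion factor gene Napa (0.957, 0.954 and 0.946). Rgs14 was most like Aak1, Cant1 and Edem2 (0.965, 0.954 and 0.935), and Rgs19 most like Pgd, Vopp1 and Rab44 (0.93, 0.927 and 0.923). For Rgs18 the closest were Ccng1, Bin2 and Snap23 (0.831, 0.824 and 0.81), and for Rgs3 Idh1, Braf and Cdc42ep2 (0.842, 0.84 and 0.839).

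Of 14 other genes of the RGS family, 4 passed the filter on low counts. Rgs12, a large relative of RGS10 and RGS14, was the most abundant, with 115 to 423 estimated counts per library. It averaged 45.5 ± 4.47, 22.0 ± 5.20 and 22.6 ± 3.32 CPM in TTP-KO libraries after control OVA, 2 h and 4 h, and 35.7 ± 3.01, 20.6 ± 1.04 and 20.2 ± 1.5 CPM in WT libraries (SD, n = 3). Its log2 change at 2 h was -1.04 ± 0.13 in TTP-KO (edgeR adjusted p = 1.2e-07) and -0.79 ± 0.13 in WT cells (adjusted p = 1.67e-05). Rgs8, with 4 to 45 estimated counts per library, changed by -1.18 ± 0.41 in TTP-KO cells (edgeR adjusted p = 0.0249) and had a log2 change of -0.71 ± 0.35 in WT cells that did not pass (adjusted p = 0.124). Rgs5 and Rgs9, with at most 29 and 17.1 counts per library, gave no call at 2 h, and Rgs7, Rgs21 and Rgs22 had no count in any library. None of the 4 was called between genotypes in edgeR, in any condition.

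The rest of the G protein pathway was taken from lists of its parts, chosen with earlier results of these data known. Their counts and medians describe the lists and do not test them. Over all genes 17.8% rose and 16.6% fell at 2 h in TTP-KO cells, and 17.8% rose and 17.3% fell in WT cells. Library totals shifted the median of all genes at 2 h by -0.336 in TTP-KO and -0.325 in WT cells. Smaller rises below, such as those of Gnai3, Gna15, Gnb1 and Gng12, are therefore relative to the median gene. Of 11 tested G alpha subunit genes, 4 rose and 3 fell in TTP-KO cells, and 2 rose and 3 fell in WT cells. Gna12, of the G12 type, had the largest change, of log2 -1.10 ± 0.25 in TTP-KO (edgeR adjusted p = 0.00308) and -0.74 ± 0.26 in WT cells (adjusted p = 0.0431). Gna11, of the Gq type, changed by -0.48 ± 0.15 in TTP-KO (edgeR adjusted p = 0.0153) and -0.66 ± 0.16 in WT cells (adjusted p = 0.0014). Gnai3, which encodes the Gi3 alpha subunit that RGS19 binds, rose by 0.34 ± 0.04 in TTP-KO (edgeR adjusted p = 3.88e-07) and 0.44 ± 0.04 in WT cells (adjusted p = 2.64e-09). Gna15, of the Gq type, rose by 0.31 ± 0.07 in TTP-KO cells (edgeR adjusted p = 0.00098) and had a change of 0.18 ± 0.07 in WT cells that did not pass (adjusted p = 0.0556). Gnai2, of the Gi type, changed by -0.21 ± 0.04 in TTP-KO and -0.23 ± 0.04 in WT cells.

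Of 10 tested G beta and gamma genes, 2 rose and 2 fell in TTP-KO cells and 2 rose and 3 fell in WT cells. Gnb1 rose by log2 0.42 ± 0.04 in TTP-KO and 0.37 ± 0.04 in WT cells, Gng12 rose by 0.14 ± 0.05 in TTP-KO and 0.33 ± 0.05 in WT cells, and Gng2 changed by -0.22 ± 0.06 in TTP-KO and -0.25 ± 0.06 in WT cells. Among 13 other regulators, 1 rose and 4 fell in TTP-KO cells and 2 rose and 2 fell in WT cells. Rgs9bp, which encodes an anchor of RGS9, changed by -3.12 ± 0.68 in TTP-KO cells (edgeR adjusted p = 0.000583) on 1 to 25 estimated counts per library, and had a change of -1.28 ± 0.57 in WT cells that did not pass (adjusted p = 0.0827). Axin2, a scaffold of the Wnt pathway with an RGS-like domain, changed by -0.52 ± 0.17 in TTP-KO and -0.65 ± 0.17 in WT cells. The GoLoco protein gene Gpsm3 changed by -0.51 ± 0.05 in TTP-KO (edgeR adjusted p = 5.58e-09) and -0.43 ± 0.05 in WT cells (adjusted p = 1.11e-07), and Gpsm1 rose by 0.43 ± 0.15 in TTP-KO and 0.42 ± 0.15 in WT cells. Gprasp1, which encodes a receptor sorting protein, had a change of 0.11 ± 0.15 in TTP-KO cells that did not pass (edgeR adjusted p = 0.646) and rose by 0.53 ± 0.15 in WT cells (adjusted p = 0.00745).

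Of 7 tested kinases and arrestins that switch off receptors, 1 rose and 4 fell at 2 h in each genotype. Their median log2 change was -0.67 in TTP-KO and -0.61 in WT cells, against -0.03 and -0.05 over all genes. Grk4, on 6 to 35 estimated counts per library, changed by -1.12 ± 0.36 in TTP-KO cells (edgeR adjusted p = 0.0163) and had a change of -0.61 ± 0.36 in WT cells that did not pass (adjusted p = 0.199). Grk6 changed by -0.75 ± 0.13 in TTP-KO and -0.73 ± 0.13 in WT cells, Grk2 by -0.73 ± 0.12 in TTP-KO and -0.66 ± 0.12 in WT cells, and the arrestin gene Arrb2 by -0.67 ± 0.04 in TTP-KO and -0.62 ± 0.04 in WT cells. Grk5 rose by 0.73 ± 0.11 in TTP-KO (edgeR adjusted p = 3.54e-06) and 0.61 ± 0.11 in WT cells (adjusted p = 5.5e-05).

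Of 19 tested genes on the effector list, 1 rose and 6 fell at 2 h in TTP-KO cells and 1 rose and 4 fell in WT cells. The 1 that rose was Kcnj2, by log2 0.99 ± 0.08 in TTP-KO and 1.03 ± 0.08 in WT cells. It encodes an inward rectifier potassium channel that is not one of those opened by G beta-gamma. Pik3cg, the phosphoinositide 3-kinase subunit activated by G beta-gamma, changed by -0.74 ± 0.09 in TTP-KO and -0.90 ± 0.09 in WT cells. Plcb2, a phospholipase C activated by Gq and G beta-gamma, changed by -0.71 ± 0.08 in TTP-KO and -0.62 ± 0.08 in WT cells. Prex1, a Rac exchange factor activated by G beta-gamma, changed by -0.49 ± 0.08 in TTP-KO and -0.30 ± 0.08 in WT cells.

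Among 43 tested receptor genes of basophils and granulocytes, 15 rose and 16 fell at 2 h in TTP-KO cells, and 14 rose and 15 fell in WT cells. S1pr3, on 1 to 18 estimated counts per library, rose by log2 2.30 ± 0.76 in TTP-KO cells (edgeR adjusted p = 0.0181) and had a change of 1.83 ± 0.75 in WT cells that did not pass (adjusted p = 0.0602). Ptgfr, a prostaglandin F receptor, changed by -1.84 ± 0.30 in TTP-KO and -1.97 ± 0.30 in WT cells. Hrh4, a histamine receptor coupled to Gi, changed by -1.80 ± 0.19 in TTP-KO and -1.51 ± 0.19 in WT cells, and S1pr1, a sphingosine 1-phosphate receptor coupled to Gi, by -1.47 ± 0.10 in TTP-KO and -1.82 ± 0.10 in WT cells. Ptger2, a prostaglandin E2 receptor coupled to Gs, rose by 1.54 ± 0.12 in TTP-KO and 1.39 ± 0.13 in WT cells. Gpr35 rose by 1.39 ± 0.14 in TTP-KO and 1.64 ± 0.14 in WT cells, and Adora2b, an adenosine receptor, by 1.47 ± 0.05 in TTP-KO and 1.56 ± 0.05 in WT cells.

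Between genotypes 0 of the 43 receptor genes were higher and 5 lower in TTP-KO in control cells, against 0.412% higher and 1.24% lower over all genes. At 2 h 0 were higher and 6 lower, against 0.909% and 1.88%, and at 4 h 1 was higher and 11 lower, against 1.83% and 3.4%. The median log2 difference of the 43 was -0.07 in control, -0.13 at 2 h and -0.11 at 4 h, against -0.00, 0.00 and 0.01 over all genes. The list was chosen with earlier results of these data known, so these shares and medians describe it and do not test it. In control cells S1pr1 differed most, by -0.59 ± 0.09 (edgeR adjusted p = 0.00016), and at 2 h the chemokine receptor gene Ccr2, by -0.51 ± 0.07 (adjusted p = 3.94e-05). At 4 h F2r, a thrombin receptor, stood at 338 ± 12.9 CPM in TTP-KO and 530.2 ± 24.1 CPM in WT libraries (log2 -0.65 ± 0.04, edgeR adjusted p = 5.36e-11). P2ry1, an ADP receptor, stood at 233 ± 7.55 CPM in TTP-KO and 351 ± 15.2 CPM in WT libraries (log2 -0.59 ± 0.05, edgeR adjusted p = 5.54e-09). Ltb4r1, a leukotriene B4 receptor, differed by -0.65 ± 0.09 and P2ry14, a receptor for UDP sugars, by -0.51 ± 0.08. For the G alpha, G beta and gamma, other regulator, kinase and arrestin, and effector lists, edgeR called 0 genes between genotypes in control and at 2 h. At 4 h it called Gnaz (-0.57 ± 0.14), Gnas (-0.17 ± 0.05), Arrb2 (-0.15 ± 0.04) and Kcnj2 (-0.55 ± 0.08) lower and Gngt2 (0.52 ± 0.12) higher in TTP-KO on the log2 scale.

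**Figure D4:**
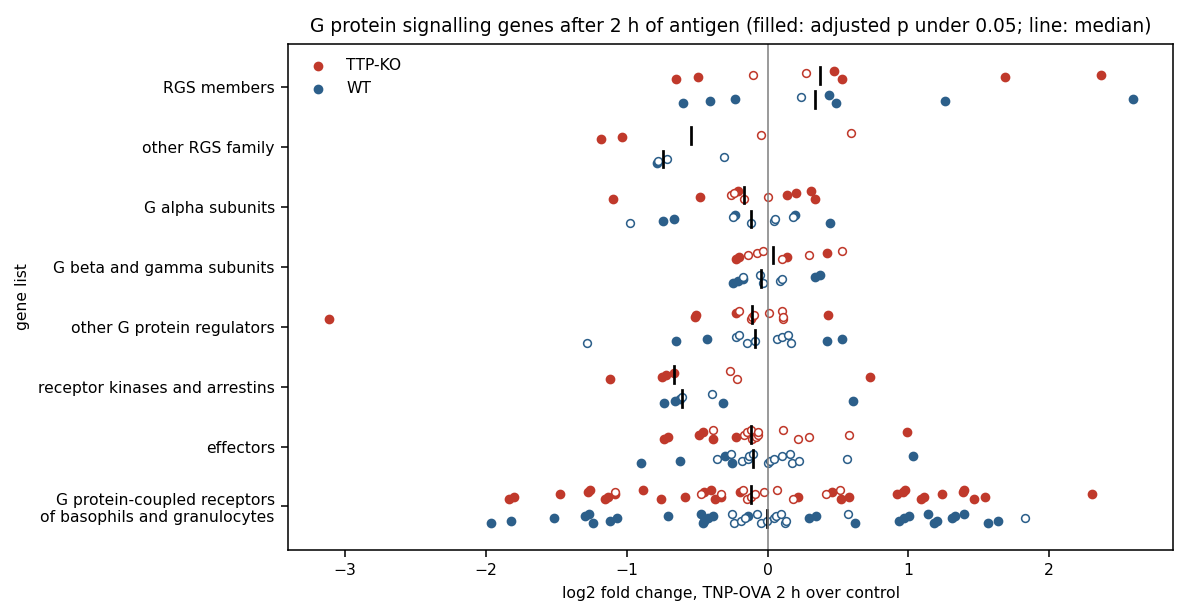
Log2 fold change after 2 h of TNP-OVA over control OVA for the tested genes of each list, TTP-KO in red above WT in blue; each point is a gene, filled where the adjusted p is under 0.05, and the black line is the list's median. Receptor kinases and arrestins have medians of -0.67 in TTP-KO and -0.61 in WT cells, and the 8 RGS genes medians of 0.37 and 0.34. Lists and members were chosen with earlier results of these data known, so the medians only describe them.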

How the data were processed

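Expected counts per gene, not normalized, were deposited by the authors as one table of 18 libraries. Per the submitters' processing notes, the tools were R 4.4.0 and 4.4.1, RSEM 1.3.1, STAR 2.7.10a and cutadapt 3.5, with GRCm39 as the build and no roles stated. The annotation and strand setting are not given in the sources used here. Table columns named unstimulated were matched to the control OVA libraries. Sequences came from GRCm38 annotation.

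Counts were rounded and fitted in R 4.3.3 with edgeR 4.0.16: filterByExpr on 6 groups, TMM scaling, the robust quasi-likelihood F test with a mean per group (12 residual degrees of freedom), and Benjamini-Hochberg adjustment over 14076 genes at 0.05. CPM are TMM-scaled. Standard errors are the log2 fold change over the square root of F. An exact permutation of 3 against 3 cannot give p below 0.1. No libraries were copies (18 within-group pairs, chi-square per degree of freedom 2.97 to 7.04). The test was also run on simulated data.

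All 8 members were named, with the 3 genes most like each and from each list up to 4 called genes with the largest change in a comparison. Members and lists were chosen with earlier results of these data known. Alternatives were RLE scaling, library totals, no filter, DESeq2 1.42.0, only the libraries compared, a replicate block and leaving out each library.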

Additional observations from a re-analysis of the deposited data

Results flagged for a closer look

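The response of Rgs1 to antigen differed between genotypes in the test of the difference itself. At 2 h the log2 response of TTP-KO cells exceeded that of WT cells by 0.43 ± 0.06 (edgeR adjusted p = 0.000804). At 4 h it exceeded it by 0.31 ± 0.06 (edgeR adjusted p = 0.0129). The 4 h call was lost without WT control replicate 2 (edgeR adjusted p = 0.053) or TTP-KO TNP-OVA 4 h replicate 2 (0.0621). The level behind the first value was 179.6 CPM in TTP-KO and 226 CPM in WT control libraries, and 578 CPM in TTP-KO and 540 CPM in WT libraries after 2 h. After 4 h the level was 252 CPM in TTP-KO and 256 CPM in WT libraries, with overlap. The second value therefore comes from the control libraries, and TTP-KO libraries did not hold more Rgs1 at 4 h. Both values share the same control libraries, which had control OVA for 2 h. B cell markers were lower in TTP-KO libraries in each condition. Their part in the difference was not tested.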

How the results depend on the processing

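Of 96 member results 39 were called, and 29 of these kept the call in every alternative run. Over 1296 recomputed member values 26 lost a call, 6 gained one and 0 called values reversed. For TTP-KO against WT at 4 h the count of members called was 2 and became 1 with RLE scaling, no filter and DESeq2, and 1 to 2 when 1 library was left out. For WT 4 h against control it was 5, became 2 with library totals, and was 3 to 5 with 1 library left out. For the difference in response at 4 h it was 1, and 0 to 1 with 1 library left out. Library totals moved the called genes at 2 h from 2510 higher of 4852 to 1218 of 7676 in TTP-KO, and from 2512 of 4944 to 1281 of 7696 in WT cells, and shifted the median of all genes by 0.20 between 2 h and 4 h in both genotypes. Counts over all genes ranged, across the alternatives, from 145 to 399 for the genotype difference in control, 228 to 537 at 2 h and 466 to 1130 at 4 h, and from 4 to 55, 46 to 259 and 25 to 134 for the differences in response at 2 h, 4 h and between them. Same-numbered libraries did not deviate together (r -0.08 to 0.03 over 27 pairs, 4 of 18 libraries closest to their own number), and a replicate block gained 1 member call, Rgs10 in TTP-KO at 4 h against control (adjusted p = 0.0336), and lost none. With the transcript cut to the RefSeq gene, tried after the data were seen, Rgs1 stood at 135 CPM per kb in TTP-KO and 169.9 CPM per kb in WT control libraries, against 46.8 in TTP-KO and 58.8 in WT over the whole transcript. The causes of the lost calls were not tested. Depth limits Rgs3 most.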
